A study of Homo sapiens with 10 samples.

Results

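The genes described here are 37 members of the antioxidant programme of the transcription factor NRF2, chosen by name from 33551 rows of a gene count table. Each of the 37 had a row, and each passed the filter on low counts, which kept 17978 rows. The names were grouped by role into 8 glutathione genes, 5 thioredoxin and peroxiredoxin genes, 5 NADPH genes, 5 iron and haem genes, 9 quinone, carbonyl and other target genes, and 5 genes that regulate NRF2. Gene models come from GENCODE release 29 on GRCh38.

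RNA was sequenced from 5 lines of A549, a human lung adenocarcinoma cell line, per the labels: wild type (WT), ABCA3 knockout (KO), and the ABCA3 variants L101P, E292V and E690K. ABCA3 is the lipid transporter that loads surfactant into the lamellar bodies of alveolar type 2 cells. Each line was sequenced untreated and after overnight exposure to a VSVG-coated lentivirus for an ABCA3:GFP fusion (multiplicity of infection 20), with 1 library per line and treatment and 10 libraries in all. All lines shared the same serum medium, how the edits were made and how many clones stand behind a line is not given in the sources used here, and each genotype is therefore 1 line.

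NRF2, encoded by NFE2L2, is held at a low level by KEAP1, which presents it to a CUL3 ubiquitin ligase for degradation. Electrophiles and oxidants disable KEAP1, NRF2 then enters the nucleus, pairs with a small MAF protein and binds antioxidant response elements in the promoters and enhancers of its targets. A549 cells are known for a damaging KEAP1 mutation and for constant NRF2 activity, so that the targets are highly expressed in this line without any stimulus.

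Totals ran from 59430095 to 96811421 counts per library. The summed level of 5 epithelial markers was 5365 to 11798 CPM (counts scaled to a common library size). Keratins made up most of it, with KRT8 at 3673 to 7946 CPM and KRT18 at 1587 to 3334. KRT19 was at 61.6 to 473 CPM, CDH1 at 21.8 to 35.4 and EPCAM at 7.62 to 22.5. Of these 5, 4 differed among lines (edgeR, adjusted p under 0.05), against 13% of all genes tested. The summed level of 7 alveolar type 2 markers was 1.26 to 2.20 CPM, so the defining genes of that cell type were at or near 0. Summed markers of other cell types were 16.6 to 119.5 CPM for 6 fibroblast genes, nearly all of it COL1A1 and highest in E292V (75.8 and 119.5 CPM, whose part in the results of that line was not tested), 1.22 to 6.48 CPM for 5 leukocyte genes, most of it CD14 with CD3E at 0 in each library, and 0.097 to 1.116 CPM for 4 endothelial genes. In the KO pair the labels went against the measurements: the library labelled KO and untreated held 600 CPM of ABCA3 and 37.9 CPM of EGFP, and the library labelled KO and transduced held 26.0 and 0.050 CPM. WT had 356 CPM of ABCA3 untreated and 602 CPM transduced, and L101P had 1151 and 922 CPM. EGFP, untreated then transduced, was 69.7 and 151 CPM in WT and 1.01 and 36.9 in L101P. It was 20.2 and 66.0 CPM in E292V and 16.5 and 18.5 in E690K. Untreated is therefore a label and not an absence of EGFP, and EGFP hardly rose in E690K. The source of EGFP in untreated libraries was not tested. Results are given as labelled, with the counts and vector values that come from exchanging the labels of this pair, or leaving it out, beside them.

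NRF2 and a small MAF protein recognise a core that was searched here as TGACNNNGC on both strands. RefSeq promoter windows on GRCh38.p14, from 250 bases before to 50 after the gene start, were at hand for 29 of the 37 genes. The core was found in 8 of those 29 windows (27.6%) and in 3702 of 27305 promoters (13.6%), and a looser core, TGANNNNGC, which contains all matches of the first, was in 14 of 29 (48.3%) against 42.1% of all promoters. The 8 were GCLM, GPX2, TXNRD1, PGD, ME1, CBR1, PIR and MAFF. A match of this kind is a description of letters, not a bound site. Shown are 5 of them along the gene's strand, 5′ to 3′, with the core or its reverse complement in capitals, chosen because GPX2, TXNRD1 and PIR differed among the lines while GCLM and ME1 are standard targets that did not pass that test.
GCLM, chr1:93909446-93909474, minus strand: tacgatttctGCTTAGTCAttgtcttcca
GPX2, chr14:64942849-64942877, minus strand: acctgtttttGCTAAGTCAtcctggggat
TXNRD1, chr12:104215670-104215698, plus strand: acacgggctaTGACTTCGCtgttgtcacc
ME1, chr6:83431170-83431198, minus strand: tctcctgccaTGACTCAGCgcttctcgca
PIR, chrX:15493289-15493317, minus strand: gccgcgaagcGCTGAGTCAcggtgaggct

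The search window, from 250 bases before to 50 after, fixed how near the RefSeq start a match could lie. With that start base as 0, the capitals began at offset -34 in GCLM, -122 in GPX2, -99 in TXNRD1 and -137 in ME1. In PIR they began at 26, downstream of the RefSeq start. GENCODE places some starts elsewhere, at 64942905 for GPX2 and 15493564 for PIR, and the matches shown lie downstream of both. TXNRD1 and ME1 each held a further match, at offsets -8 and 11.

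The programme as a whole took up a large share of each library. Summed over the 37 genes, the level was 26536 CPM in untreated WT, 2.70% of its counts, and it was lowest in transduced E690K, at 19084 CPM or 1.86%. The ferritin genes FTL and FTH1 made up 11978 CPM of the first sum and 6432 CPM of the second. Per kilobase of exon, the highest median levels were those of FTL (7453 CPM per kb), FTH1 (847), TXNRD1 (416), PRDX1 (402) and GPX2 (400), and GSTM3 was lowest at 1.76 CPM per kb. Relative to WT, as a geometric mean over both treatments, the sum of KO stood at 0.905, that of L101P at 0.894, that of E292V at 0.909 and that of E690K at 0.791. Without the ferritins these ratios were 1.05, 1.03, 0.929 and 0.923, so the sums of KO and L101P lay on the other side of 1.

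**Figure D1:**
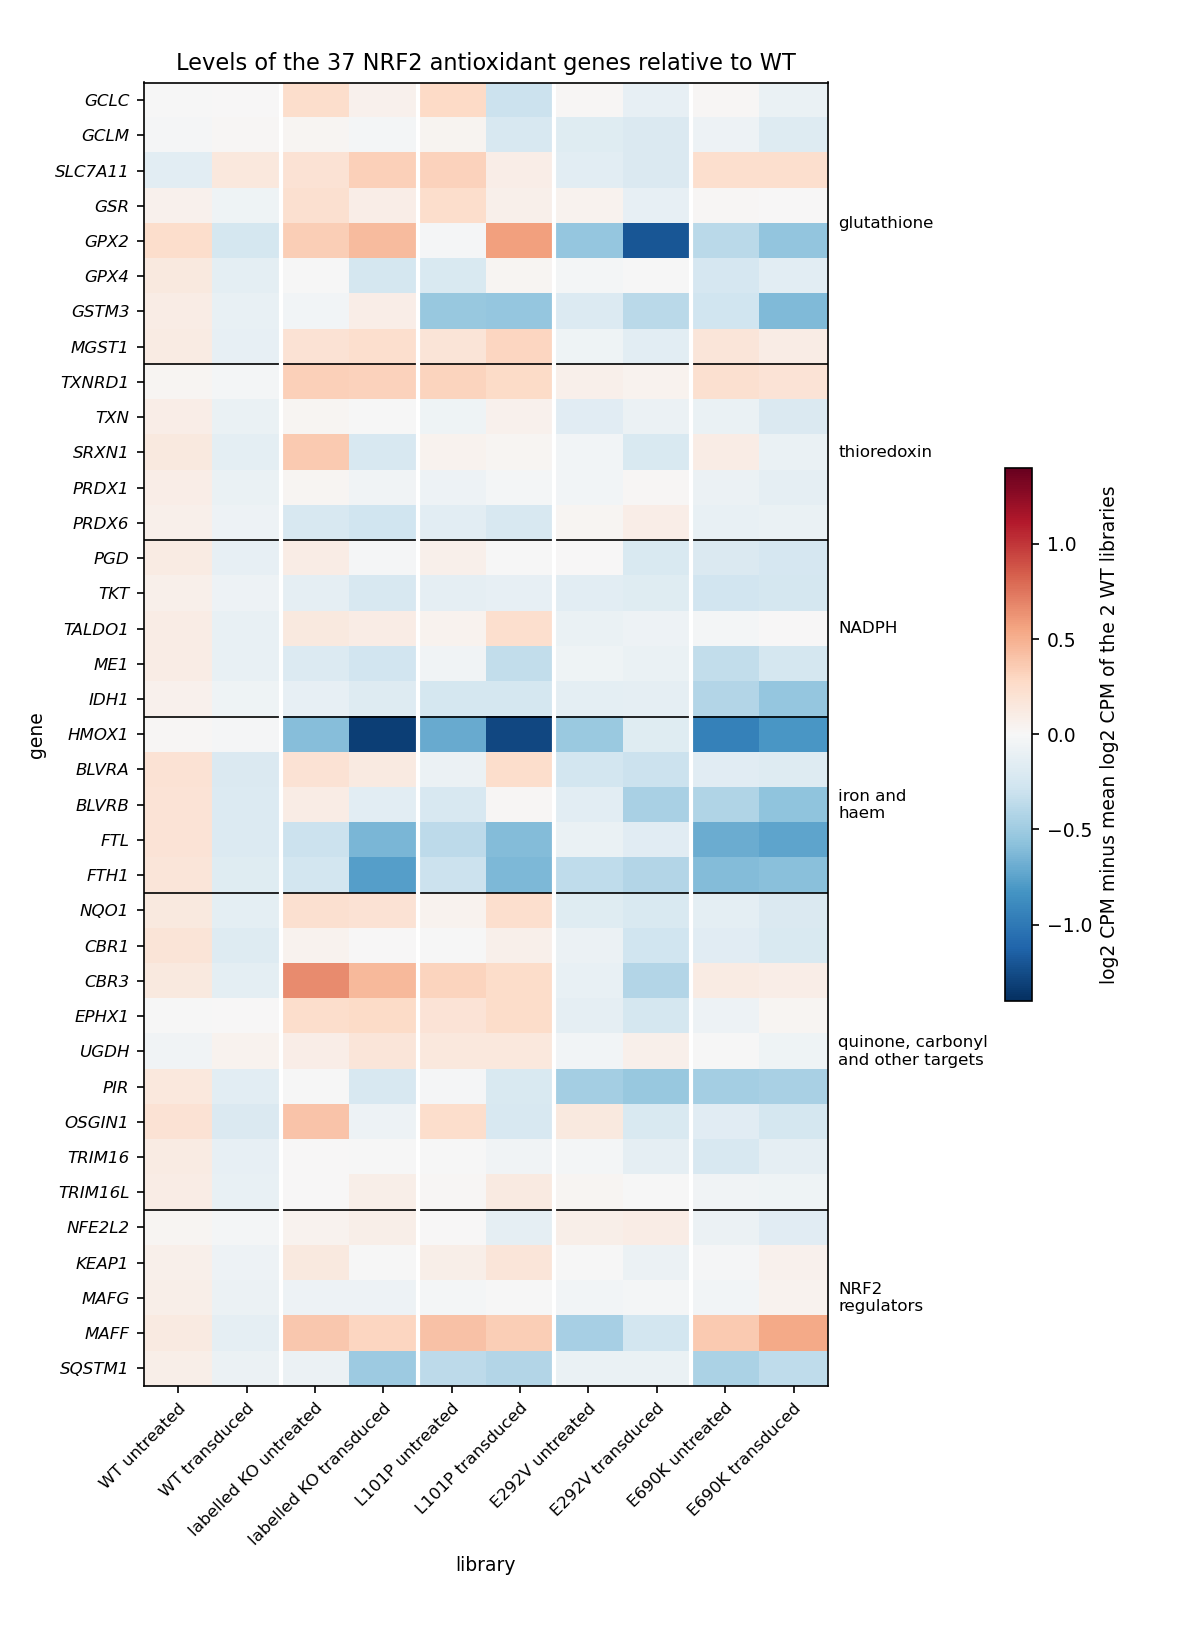
Levels of the 37 genes (rows, grouped by role) in the 10 libraries (columns), as log2 CPM minus the mean log2 CPM of the 2 WT libraries, red higher and blue lower. The deepest blue cells are HMOX1 in the transduced libraries of KO and L101P and GPX2 in transduced E292V.

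Across the 5 lines, 14 of the 37 genes differed (edgeR's quasi-likelihood test of the 4 line coefficients, adjusted p under 0.05), against 13% of all genes tested. They were SLC7A11, GPX2, TXNRD1, PRDX6, IDH1, HMOX1, BLVRB, FTL, FTH1, NQO1, CBR3, EPHX1, PIR and MAFF. By role, these are 4 of 5 iron and haem genes, 4 of 9 quinone, carbonyl and other targets, 2 of 8 glutathione genes, 2 of 5 thioredoxin genes, 1 of 5 NADPH genes and 1 of 5 regulators. Exchanging the labels of the KO pair gave 10 such genes, without SLC7A11, PRDX6, BLVRB and FTH1. There were 9 without the KO pair, 9 without the E690K pair and 7 without the E292V pair. How many of all genes these refits called is not given here. FTL, PIR and GPX2 passed in each of the 20 alternative settings.

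Against WT, the groups of called genes were small and differed in direction. In KO, 1 gene was higher (TXNRD1; 0.807% of all genes tested were called higher) and 3 were lower (HMOX1, FTL and FTH1; 0.99% of all genes). In L101P, TXNRD1 was higher, against 2.33% of all genes, and HMOX1, FTL and FTH1 were lower, against 1.61%. In E292V no member was called higher, against 0.295%, and PIR alone was lower, against 0.756%. There 9 members and 1857 of all 17978 genes had an unadjusted p under 0.05. DESeq2 called 2 members lower, PIR and FTH1, and 432 of all genes in either direction. In E690K no member was called higher, against 3.05% (DESeq2 called 2, TXNRD1 and MAFF), and 7 were lower, IDH1, HMOX1, BLVRB, FTL, FTH1, PIR and SQSTM1, against 2.33%. With the KO labels exchanged, edgeR called 0 members in KO, HMOX1 in L101P, 0 in E292V, and IDH1, HMOX1, FTL and PIR in E690K. All 4 contrasts share the same 2 WT libraries. The median log2 fold change of the 37 genes was 0.04 for KO and -0.00 for L101P, and it was -0.12 for E292V and -0.15 for E690K. That of all genes was -0.01, -0.01, -0.00 and -0.02 in the same order.

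**Figure D2:**
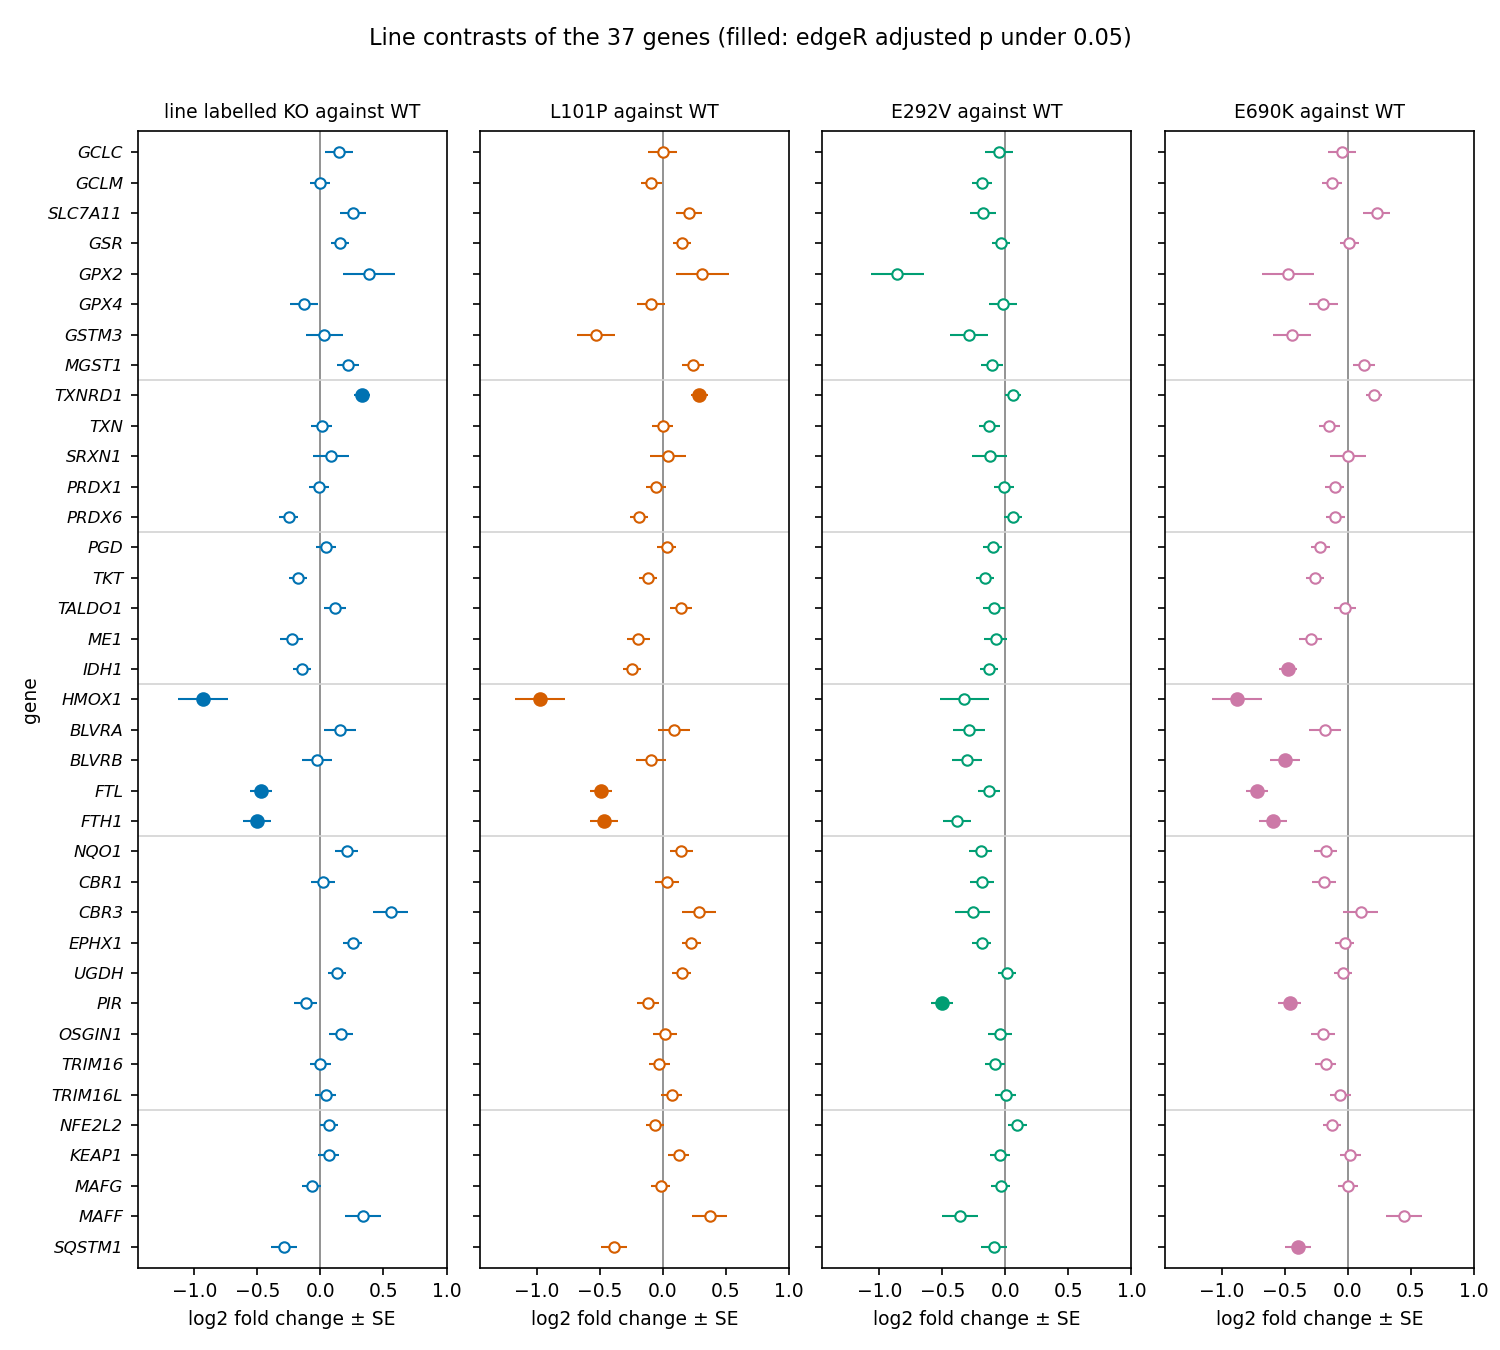
Log2 fold change of each of the 37 genes in 4 lines against WT, with its standard error, from the edgeR fit over 10 libraries; filled points have an adjusted p under 0.05. Filled points in KO and in L101P are TXNRD1 right of 0 and HMOX1, FTL and FTH1 left of it, in E292V PIR, and in E690K 7 genes, all left of 0.

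Another view, without a test, asks which genes had all 8 libraries of the other lines on one side of both WT libraries. It is not stricter than the tests, since TKT met it without an edgeR call and FTL did not meet it. Below WT these were TKT, IDH1, HMOX1, FTH1 and SQSTM1, 5 of 37 genes, against 2.75% of all genes tested. Above WT there was 1, TXNRD1, against 1.99%. Over the 6 libraries of L101P, E292V and E690K alone, the counts were 6, with GSTM3 added, against 4.09%, and 1 against 2.87%.

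The iron and haem genes held the largest called differences, led by HMOX1. HMOX1 encodes the inducible haem oxygenase, which opens the haem ring and frees iron, and its level in WT was 391 CPM untreated and 382 CPM transduced. In KO the values were 256 and 155 CPM, in L101P 237 and 160 CPM, in E292V 269 and 344 CPM, and in E690K 199.97 and 219 CPM. Both WT libraries lay above all others, and transduced E292V came nearest to them. The 95% Wilson intervals on read pairs are narrow beside these gaps, 385 to 397 CPM in untreated WT and 195 to 205 CPM in untreated E690K, and cover counting error only. The fitted log2 fold change was -0.93 ± 0.20 (SE) in KO, which is 52.4% of the WT level (edgeR, adjusted p = 0.0354). It was -0.98 ± 0.20 in L101P, 50.8% of WT (edgeR, adjusted p = 0.0179), and -0.88 ± 0.20 in E690K, 54.4% of WT (edgeR, adjusted p = 0.0232). In E292V it was -0.33 ± 0.20 and did not pass (edgeR, adjusted p = 0.647). In a bulk sample a smaller share of cells with a transcript and less of it per cell cannot be told apart.

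FTL and FTH1 encode the light and heavy chains of ferritin, the shell that stores iron. FTL stood at 9450 CPM in untreated and 7211 CPM in transduced WT. In the order untreated, transduced, KO had 6702 and 5298 CPM, L101P 6386 and 5429, E292V 7741 and 7382, and E690K 5088 and 4932. KO, L101P and E690K lay wholly below WT, and E292V lay within its range. The log2 fold change of FTL was -0.72 ± 0.09 in E690K (edgeR, adjusted p = 0.000606), -0.49 ± 0.09 in L101P (edgeR, adjusted p = 0.0100) and -0.47 ± 0.09 in KO (edgeR, adjusted p = 0.0189), and it was -0.13 ± 0.09 in E292V (edgeR, adjusted p = 0.716).

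The FTH1 levels, again untreated then transduced, were 2528 and 1992 CPM in WT, whereas KO had 1883 and 1314, L101P 1820 and 1448, E292V 1755 and 1685 and E690K 1471 and 1501. All 8 of the other libraries were below both WT libraries. FTH1 was at 70.4% of WT in KO (log2 fold change -0.51 ± 0.11, edgeR, adjusted p = 0.0415), at 72.3% in L101P (-0.47 ± 0.11, adjusted p = 0.0366) and at 66.5% in E690K (-0.59 ± 0.11, adjusted p = 0.00903), and E292V did not pass (-0.38 ± 0.11, adjusted p = 0.172).

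BLVRB, a biliverdin and flavin reductase downstream of haem oxygenase, was at 175 and 134 CPM in WT, whereas KO had 165 and 139, L101P 131 and 155, E292V 138 and 112 and E690K 114 and 104. The E690K pair alone lay wholly below WT, and there BLVRB was at 70.7% of its WT level (-0.50 ± 0.12, edgeR, adjusted p = 0.0293). BLVRA, the main biliverdin reductase, ranged from 44.1 to 64.2 CPM and passed in no contrast.

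These calls depended on single libraries to an unequal degree. FTL in E690K passed in 18 of 18 alternative settings, with log2 fold changes of -0.83 to -0.61, and HMOX1 in L101P in 17 of 18. DESeq2 did not call HMOX1 in KO (adjusted p = 0.0541) or in E690K (adjusted p = 0.0506), where its log2 fold changes were -0.93 and -0.87. In KO, HMOX1 passed in 10 of 18 settings, and in E690K in 13 of 18. Those it missed in KO include exchanged labels of that pair (edgeR, adjusted p = 0.0728), and the fits without the untreated WT library (0.0780) and without the transduced KO library (0.510), where its log2 fold change was -0.61. FTL, FTH1 and TXNRD1 in KO missed it in those same 3 settings, with adjusted p of 0.0591 to 0.618. Without the untreated WT library, which held the highest value of both ferritins, FTL and FTH1 in L101P gave adjusted p of 0.0694 and 0.180, and HMOX1, FTH1 and BLVRB in E690K gave 0.0548, 0.0635 and 0.274.

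**Figure D3:**
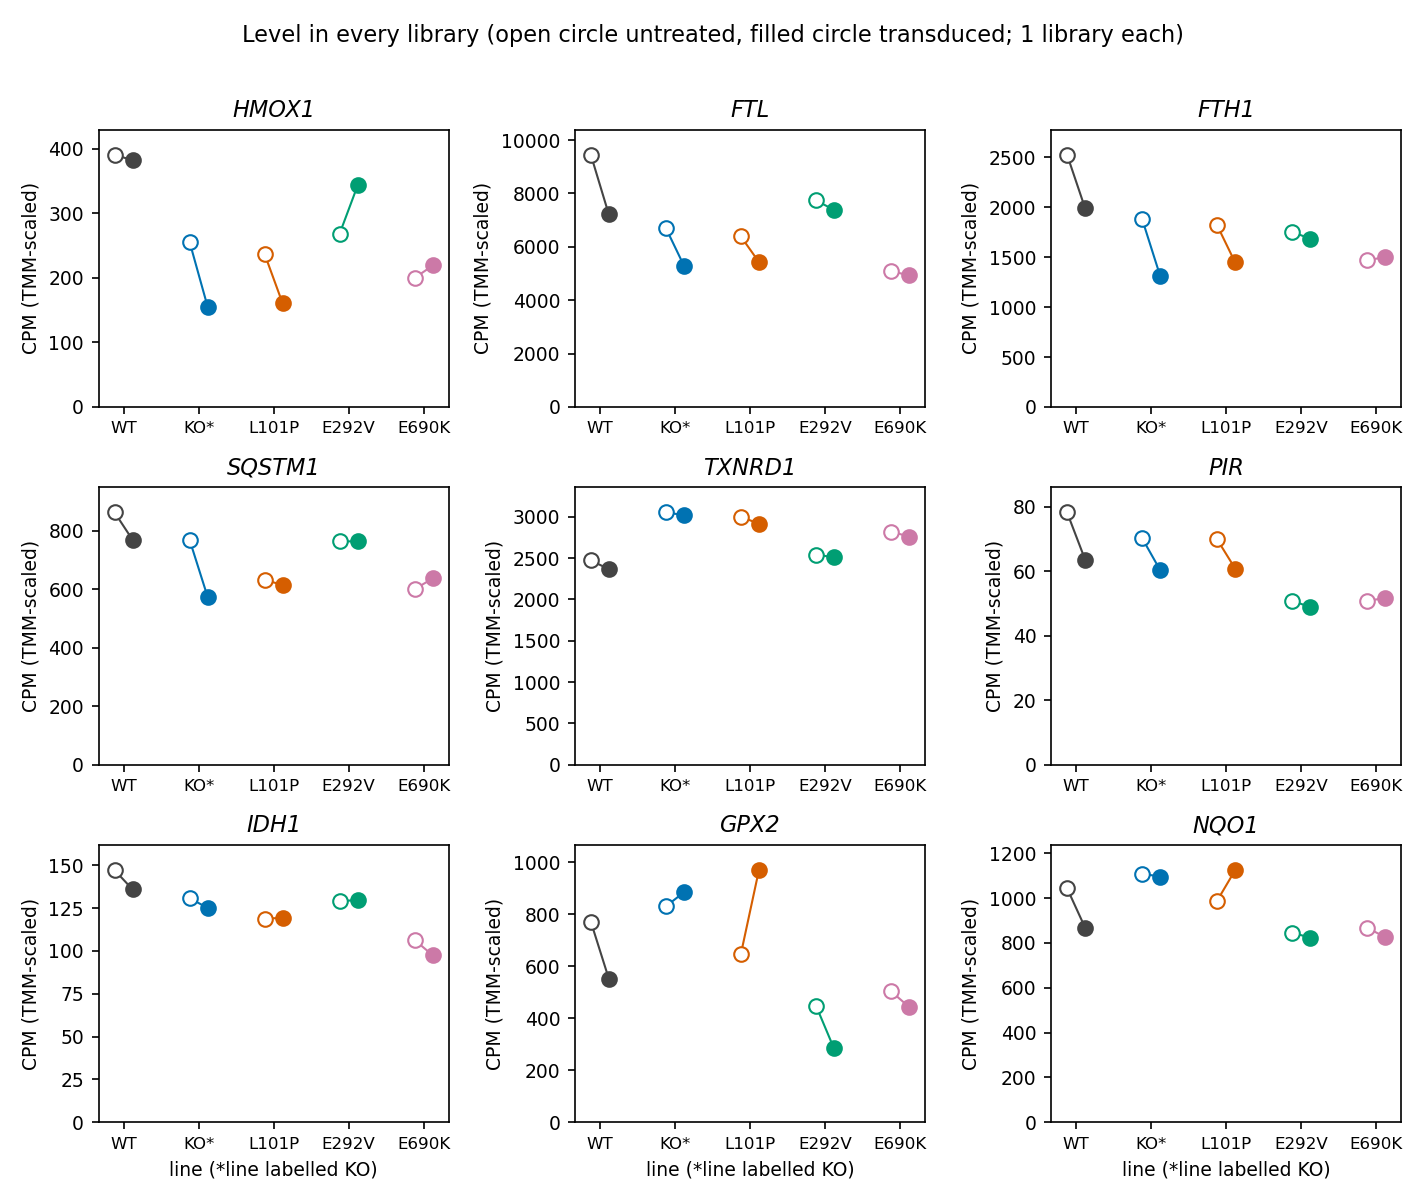
TMM-scaled CPM of 9 genes in each library, open circles untreated and filled circles transduced, joined within a line, with y axes from 0. HMOX1, FTH1 and SQSTM1 have both WT points above all others, TXNRD1 has them below all others, and PIR is lowest in E292V and E690K.

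How the authors' counting treated reads shared with other loci bears on the ferritins. The annotation holds 25 pseudogenes of FTH1 and 16 of FTL by name, none of which has a row in the table, and 62.4% of FTH1 exon bases overlap BEST1 on the opposite strand, a gene with 581 counts over the 10 libraries against 1398862 for FTH1. Whether counting used strand is not given in the sources used here. Genes within 5 Mb were compared to see whether a called member moved with its surroundings, a look chosen after the values were seen. Around HMOX1, FTL, FTH1, BLVRB, IDH1, SQSTM1 and TXNRD1 the median log2 fold change of neighbours was -0.11 to 0.04 in the contrasts where each was called.

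Of 14 further iron and haem genes, 2 differed among lines by edgeR, a share near the 13% of all genes tested. SLC40A1, the iron exporter ferroportin, was lower in E292V (-0.71 ± 0.11, edgeR, adjusted p = 0.0118) and in E690K (-0.59 ± 0.11, adjusted p = 0.00844). Its levels were 20.4 and 21.5 CPM in WT, 13.6 and 12.04 in E292V, and 14.5 and 13.3 in E690K. KO, at 26.9 and 25.6 CPM, and L101P, at 25.6 and 28.3, lay above both WT libraries. DESeq2 called SLC40A1 higher in L101P (0.38, adjusted p = 0.0380), and edgeR did not (adjusted p = 0.0893). ALAS1, the first enzyme of haem synthesis, was lower in L101P (-0.41 ± 0.10, edgeR, adjusted p = 0.0322). TFRC, the transferrin receptor, kept within 243 to 299.8 CPM and passed in no contrast.

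Among the thioredoxin genes, TXNRD1 was the 1 member called higher in any contrast. It encodes the cytosolic selenoprotein that reduces thioredoxin with NADPH. WT held 2473 and 2366 CPM, KO 3053 and 3021, L101P 3002 and 2915, E292V 2542 and 2510, and E690K 2820 and 2761. All 8 libraries of the other lines were above WT, E292V by the least. The difference was small. TXNRD1 was at 126% of WT in KO (0.33 ± 0.06, edgeR, adjusted p = 0.0258) and at 122% in L101P (0.29 ± 0.06, adjusted p = 0.0277). E690K gave 0.21 ± 0.06 (adjusted p = 0.0898) and E292V 0.06 ± 0.06 (adjusted p = 0.841). The call passed in 11 of 18 alternative settings in KO and in 9 of 18 in L101P. Log2 fold changes stayed at 0.32 to 0.35 in KO and 0.28 to 0.31 in L101P. The L101P call was lost without the KO pair (adjusted p = 0.0694). Both calls were lost with the KO labels exchanged, without the E690K pair, and without either WT or either KO library.

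PRDX6, a peroxiredoxin that reduces phospholipid hydroperoxides, differed among lines (edgeR, adjusted p = 0.0445) but passed in no single contrast by edgeR, while DESeq2 called it lower in KO (-0.25, adjusted p = 0.0445). It was at 224 and 204 CPM in WT, whereas KO had 182 and 177, L101P 192 and 183, E292V 218 and 228 and E690K 199 and 200. KO, L101P and E690K lay below WT and E292V overlapped it. TXN (384 to 468 CPM), PRDX1 (581 to 673 CPM) and SRXN1 (10.65 to 16.04 CPM), thioredoxin, a peroxiredoxin and the sulfiredoxin that repairs peroxiredoxins, were not called in any contrast by edgeR or DESeq2. SRXN1 shares 85.0% of its exon bases with AL121758.1 on the same strand, a gene with 260 counts over the 10 libraries against 9992 for SRXN1, and how reads in these bases were assigned is not given in the sources used here. TXN has 7 pseudogenes by name in the annotation and PRDX1 has 1.

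Of 14 further thioredoxin and peroxide genes, edgeR called 1 lower in E292V, against 0.756% of all genes tested, and 1 lower in E690K, against 2.33%. In E292V it was PRDX4, an endoplasmic reticulum peroxiredoxin (-0.47 ± 0.10, edgeR, adjusted p = 0.0494), which like PIR lies on the short arm of chromosome X. In E690K it was CAT, catalase, which removes hydrogen peroxide (-0.36 ± 0.09, edgeR, adjusted p = 0.0394).

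The glutathione genes showed no called difference from WT by edgeR, 0 of 8 in each of the 4 contrasts. Calls were few among all 17978 genes too, from 189 for E292V to 967 for E690K. A count of 0 among 8 genes therefore does not set this group apart. Of the 8, 2 to 3 per contrast had an unadjusted p under 0.05, and DESeq2 called 1, GSTM3 in L101P. GPX2, a cytosolic glutathione peroxidase best known from gut epithelium, varied most of all 37, by 3.41-fold between its lowest and highest library, and differed among lines (edgeR, adjusted p = 0.00610). Its levels were 772 and 552 CPM in WT, whereas KO had 831 and 884, L101P 648 and 970, E292V 449 and 284 and E690K 504 and 444. E292V and E690K lay below WT, KO above it and L101P around it. The contrasts were -0.86 ± 0.21 in E292V (edgeR, adjusted p = 0.0878) and -0.48 ± 0.21 in E690K (adjusted p = 0.229).

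SLC7A11, the cystine importer that feeds glutathione synthesis, also differed among lines (edgeR, adjusted p = 0.0432). It stood at 219 and 270 CPM in WT, whereas KO had 279 and 307, L101P 305 and 261, E292V 221 and 212 and E690K 287 and 286. Both KO and both E690K libraries were above WT, and no single contrast passed (adjusted p of 0.251 to 0.636). GCLM, the modifier subunit of the enzyme that commits glutamate and cysteine to glutathione, kept within 148 to 177 CPM, with 171 and 174 in WT, whereas KO had 176 and 169, L101P 177 and 148, E292V 154 and 150 and E690K 164 and 152 (edgeR among lines, adjusted p = 0.388). GCLC, its catalytic partner, GSR, which regenerates glutathione, GPX4, which detoxifies lipid peroxides, and MGST1, a membrane glutathione transferase, spanned 282 to 423, 347 to 443, 152 to 200 and 256 to 349 CPM and were not called by edgeR, while DESeq2 called MGST1 among lines (adjusted p = 0.00218). GSTM3, a cytosolic transferase, was scarce at 6.37 to 10.56 CPM, and its lowest contrast was -0.53 ± 0.15 in L101P (edgeR, adjusted p = 0.0738).

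Of 17 further glutathione genes 16 had a row, and 2 were lower in E690K, against 2.33% of all genes tested. They were GSTM4, a transferase (-0.76 ± 0.17, edgeR, adjusted p = 0.0232), and GLRX, a glutaredoxin (-0.63 ± 0.15, adjusted p = 0.0272). None was called in the other contrasts by edgeR, where KO, L101P and E292V had 1, 6 and 3 at an unadjusted p under 0.05 and DESeq2 called 0, 2 and 1.

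SLC7A11 is also a target of ATF4, the factor of the amino acid and integrated stress response, so 12 other ATF4 targets are given beside it. Of these, 11 differed among lines, against 13% of all genes tested. In KO 5 were lower, against 0.99% of all genes tested. Among them were CHAC1, a glutathione-degrading enzyme, at -1.49 ± 0.23, PHGDH, the first enzyme of serine synthesis, at -0.93 ± 0.11 and ASNS, asparagine synthetase, at -0.69 ± 0.11. In L101P 7 were lower, against 1.61%, with VLDLR at -1.33 ± 0.30, CHAC1 at -0.996 ± 0.226 and ASNS at -0.83 ± 0.11. In E690K 5 were lower, against 2.33%, and 1, ATF3, was higher at 0.89 ± 0.18, against 3.05%. In E292V the direction was mostly the other way, with 10 of the 12 positive and a median log2 fold change of 0.22. There 0 passed by edgeR and 4 had an unadjusted p under 0.05. DESeq2 called 2 in E292V, both higher, ASNS (0.45, adjusted p = 0.0106) and PHGDH (0.49, adjusted p = 0.00459). SLC7A11 itself stood above WT in both libraries of KO and of E690K, and it overlapped WT in L101P and in E292V. No single contrast of SLC7A11 passed by edgeR, and whether it moved with the 12 targets was not tested.

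NADPH supplies the electrons for both systems. IDH1, cytosolic isocitrate dehydrogenase, was at 147 and 136 CPM in WT, whereas KO had 131 and 125, L101P 119 and 119, E292V 129 and 130 and E690K 106 and 97.4. All 8 libraries lay below WT, and E690K was lowest. The E690K contrast was -0.47 ± 0.07, 71.99% of WT (edgeR, adjusted p = 0.00250), and it missed the threshold in 1 of 18 settings, without the transduced E690K library (0.0603). L101P came to -0.25 ± 0.07 and did not pass by edgeR (adjusted p = 0.0770), while DESeq2 called it (adjusted p = 0.0460). PGD and TKT of the pentose phosphate pathway, TALDO1 of the same pathway, and malic enzyme ME1 ranged from 840 to 1068, 1789 to 2277, 301 to 381 and 93.1 to 127 CPM and were called in no contrast by edgeR. DESeq2 called TKT lower in E690K (-0.25, adjusted p = 0.0153). Of 12 further NADPH genes, ME3, a mitochondrial malic enzyme, was higher in E690K (0.39 ± 0.08, edgeR, adjusted p = 0.0178), where 3.05% of all genes tested were called higher.

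In the quinone, carbonyl and other target group, PIR was the gene that edgeR called against WT, and DESeq2 also called CBR3 and EPHX1 higher in KO (adjusted p of 0.0154 and 0.0416). PIR encodes pirin, a nuclear iron-binding protein, and spans chrX:15384799-15493564 on the minus strand. It was at 78.3 and 63.7 CPM in WT, whereas KO had 70.3 and 60.4, L101P 69.9 and 60.9, E292V 50.8 and 48.9 and E690K 50.9 and 51.6. E292V and E690K lay wholly below the other 6 libraries. PIR was at 70.6% of WT in E292V (-0.50 ± 0.09, edgeR, adjusted p = 0.0201) and at 72.7% in E690K (-0.46 ± 0.09, adjusted p = 0.0110). Without the untreated WT library the values were -0.41 (adjusted p = 0.297) and -0.37 (adjusted p = 0.142), and with the KO labels exchanged E292V gave -0.51 (adjusted p = 0.0822).

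The surroundings of PIR differed between these lines. In E292V, all 35 genes within 5 Mb with at least 2 CPM had a negative log2 fold change, with a median of -0.45, close to that of PIR itself. In E690K 20 of the same 35 were lower and the median was -0.03. Over the short arm of chromosome X, taken as gene starts below 58 Mb, 149 of 155 genes were lower in E292V, with a median of -0.47, whereas the 222 genes of the long arm had a median of 0.02. In KO, L101P and E690K the median of the short arm was 0.00, 0.01 and -0.03. The part of the arm-wide difference in the PIR and PRDX4 results of E292V was not tested.

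**Figure D4:**
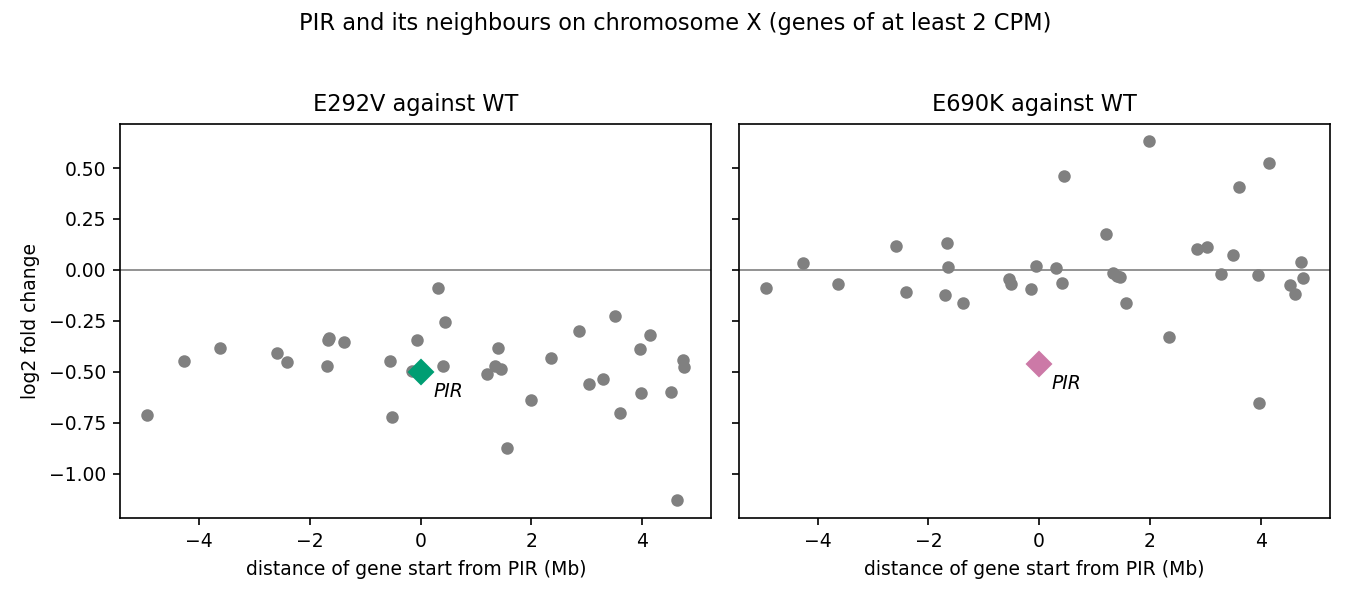
Log2 fold change against WT of genes of at least 2 CPM whose start lies within 5 Mb of that of PIR on chromosome X (grey), with PIR as a diamond. In E292V all 35 neighbours lie below 0 around the level of PIR, and in E690K they scatter around 0 with PIR at -0.46.

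NQO1, the quinone reductase most used as a readout of NRF2, differed among lines (edgeR, adjusted p = 0.0248). It was at 1044 and 868 CPM in WT, whereas KO had 1108 and 1096, L101P 988 and 1124, E292V 846 and 823 and E690K 868 and 825. KO lay above WT and E292V and E690K below it, by log2 fold changes of 0.21 ± 0.09, -0.19 ± 0.09 and -0.17 ± 0.09 that did not pass (adjusted p of 0.337, 0.504 and 0.340). For untreated E690K the margin was slight, at 867.86 CPM against 868.03 in transduced WT. The 95% Wilson intervals of these libraries overlapped, 858 to 877 and 859 to 877 CPM.

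CBR3, a carbonyl reductase, stood at 8.85 and 7.36 CPM in WT, whereas KO had 12.7 and 11.1, L101P 10.1 and 9.61, E292V 7.502 and 6.06 and E690K 8.72 and 8.60 (edgeR among lines, adjusted p = 0.0109). KO and L101P were above WT, the first by 0.56 ± 0.14 (adjusted p = 0.0631). EPHX1, the microsomal epoxide hydrolase, also had KO and L101P above WT, with 132 and 134 CPM in WT, whereas KO had 157 and 160, L101P 152 and 159, E292V 121.5 and 112 and E690K 126 and 135 (edgeR among lines, adjusted p = 0.00600). E292V was below WT and no single contrast passed by edgeR (adjusted p of 0.115 to 0.917). CBR1, UGDH, TRIM16, TRIM16L and OSGIN1 were not called among lines, at 127 to 175, 531 to 625, 124 to 157, 219 to 258 and 60.3 to 93.9 CPM.

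Among the regulators, NFE2L2, the NRF2 gene itself, kept within 83.3 to 100.1 CPM, with 94.8 and 91.3 in WT, whereas KO had 96.1 and 98.7, L101P 93.3 and 85.0, E292V 98.7 and 100.1 and E690K 87.6 and 83.3. Its test among lines gave an adjusted p of 0.222 (edgeR), and its contrasts were -0.12 to 0.10 on the log2 scale. KEAP1 was at 131 and 118 CPM in WT, whereas KO had 137 and 124, L101P 132 and 140, E292V 124 and 117 and E690K 123 and 129 (edgeR, adjusted p = 0.580). MAFG, a small MAF partner, spanned 120.0 to 135 CPM.

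MAFF, the other small MAF listed, was scarce and differed among lines (edgeR, adjusted p = 0.00949). It had 10.1 and 8.49 CPM in WT, whereas KO had 12 and 11.4, L101P 12.3 and 11.7, E292V 6.71 and 7.77 and E690K 11.9 and 13.4. E292V lay below WT and the other lines above it, and no contrast passed by edgeR, with 0.45 ± 0.14 in E690K (adjusted p = 0.0942). SQSTM1 encodes p62, which binds KEAP1 and carries it to autophagy. Its levels were 862 and 768 CPM in WT, whereas KO had 768 and 573, L101P 631 and 614, E292V 763 and 763 and E690K 600 and 636. All 8 were below both WT libraries, in untreated KO by a margin of under 1 CPM. SQSTM1 was at 76.1% of WT in E690K (-0.39 ± 0.10, edgeR, adjusted p = 0.0456) and came to -0.39 ± 0.10 in L101P (adjusted p = 0.0598, and 0.00825 by DESeq2, which called it). The E690K call passed in 11 of 18 alternative settings, with log2 fold changes of -0.51 to -0.28. It was lost with another scaling of library sizes (0.0520), with the KO labels exchanged and without the E292V pair. Leaving out either WT library or either E690K library also lost it. Of 14 other regulators, among them BACH1, the repressor that competes with NRF2 at these elements, 0 were called by edgeR among lines or in any contrast, where 1 to 3 had an unadjusted p under 0.05. DESeq2 called 1, NFE2L1, among lines and 0 in the contrasts.

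For the vector, tested over the 5 line pairs with line kept as a block, edgeR called 0 of the 37 genes and 0% of all genes. Of the members 9 had an unadjusted p under 0.05, all negative, against 1236 of all 17978 genes in either direction. DESeq2 called 2 members, OSGIN1 and FTL, against 113 of all genes. OSGIN1, an NRF2 target that responds to oxidative stress, had an adjusted p of 0.109 (edgeR), the smallest value over all genes, which 13 genes share. It went from 81.9 to 62.1 CPM in WT, 93.9 to 68.0 in KO, 84.7 to 61.1 in L101P, 78.3 to 61.4 in E292V and 63.8 to 60.3 in E690K. It was lower in each of the 5 pairs as labelled, least in E690K, with a fitted log2 fold change of -0.35 ± 0.06. Leaving out either L101P library brought OSGIN1, BLVRB, FTL and GPX2 past the threshold (edgeR, adjusted p of 0.00524 to 0.0395). With the KO labels exchanged OSGIN1 came to -0.17 ± 0.11 (edgeR, adjusted p = 0.9997), with 0 members at an unadjusted p under 0.05, and without the KO pair to -0.32 ± 0.07 (adjusted p = 0.585), with 4 such members, all lower.

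Single lines differed in how the 37 genes stood after transduction. The median log2 change was -0.21 in WT, where 32 of 37 genes were lower, -0.07 in KO with 29 lower, -0.02 in L101P with 20 lower, -0.04 in E292V with 26 lower and -0.02 in E690K with 23 lower. With its labels exchanged the KO median becomes 0.07, with 8 lower and 29 higher. Over all genes tested, 48.8% to 50.3% were lower in a line and the medians lay between -0.00 and 0.01. Whether WT differed from the other 4 lines was tested as an interaction, and edgeR called 0 members and 0% of all genes. In that test 4 members and 597 of all 17978 genes had an unadjusted p under 0.05, and no adjusted p was below 0.977. With 1 library on each side of a line's change, a difference between 2 libraries and an effect of the vector cannot be told apart.

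Lower in all 5 lines as labelled were GSR, TXNRD1, SRXN1, PGD, FTL, CBR3 and OSGIN1, 7 of 37 genes, against 3.55% of all genes tested, and higher in all 5 were 0, against 4.29%. In the 4 lines other than KO, whose labels are in doubt, 8 were lower, with GSTM3 added, against 5.82%, and 0 were higher, against 6.76%. With the KO labels exchanged, 1 member, GSTM3, was lower in all 5, against 2.07% of all genes, and 0 were higher, against 2.29%. HMOX1 went in different directions, by -0.03 for WT and -0.56 for L101P on the log2 scale, against 0.35 for E292V and 0.13 for E690K. In KO it was -0.72 as labelled and 0.72 with the labels exchanged. GPX2 also differed in direction, with -0.48 in WT, 0.58 in L101P, -0.66 in E292V and -0.18 in E690K, and in KO with 0.09 as labelled and -0.09 exchanged.

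**Figure D5:**
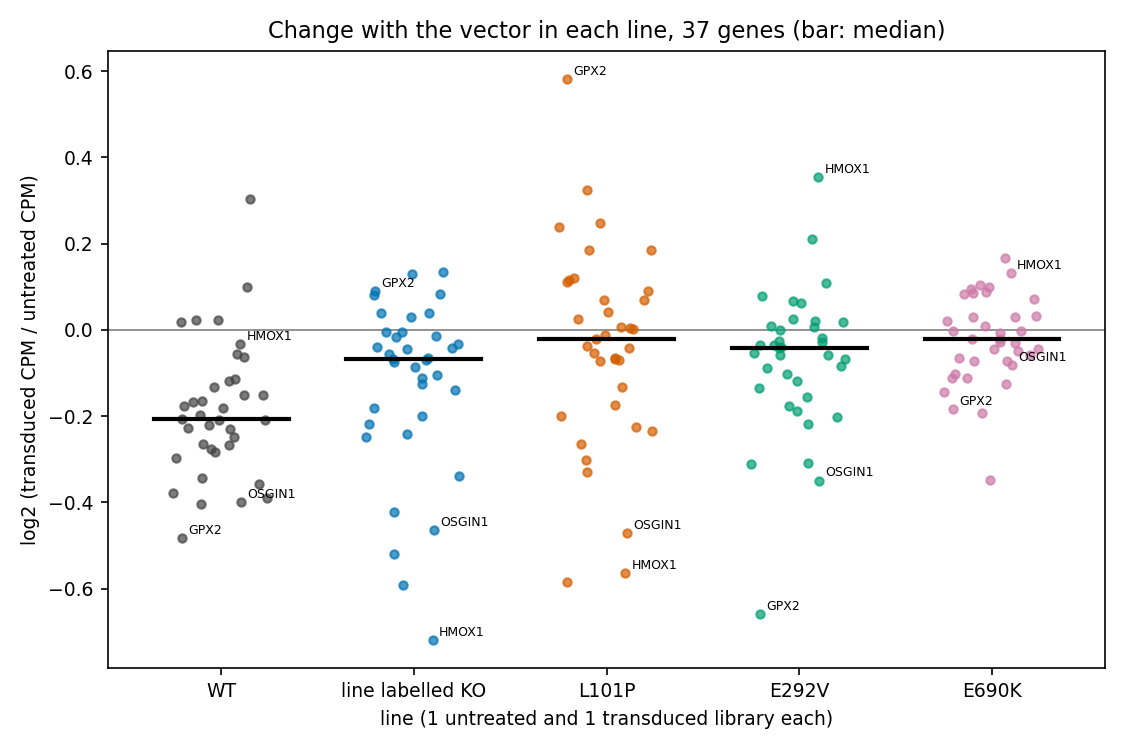
Log2 ratio of the transduced to the untreated library in each line for the 37 genes, with the median as a bar and HMOX1, OSGIN1 and GPX2 named. The WT median is at -0.21 and the other 4 lie between -0.07 and -0.02, and HMOX1 is below 0 in L101P and in KO as labelled (0.72 if its labels are exchanged) but above 0 in E292V and E690K.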

How the data were processed

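Whole-number counts per gene for 10 libraries were used as the authors deposited them, with 33551 rows and 0 unused columns. Per the submitters' processing notes, featureCounts, Subread, edgeR, limma and GRCh38 were named, without roles. The aligner's settings, the annotation, strand use and the treatment of shared reads are not given in the sources used here. Of the values from 1 to 10, 81.4% were even, against 51.5% above 1000, which is what adding both mates of a pair would give, so 95% Wilson intervals were taken on read pairs, the count divided by 2.

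The counts were fitted in R 4.3.3 with edgeR 4.0.16: filterByExpr, TMM factors of 0.972 to 1.028, an additive model (line plus vector) with 4 residual degrees of freedom (3 with the vector by WT term), common dispersion 0.0168, Benjamini-Hochberg adjustment over 17978 genes and a threshold of 0.05. Libraries were paired by cell line. The error is the departure from additivity, so a call describes these libraries of 1 line each, and nothing says they are separate cultures. A standard error is the log2 fold change over the square root of F. DESeq2 1.42.0, 2 other filters, another scaling, exchanged KO labels and each library or pair left out were alternatives. Counts of the same design were simulated with a change set in a random sample of genes and no other line or vector effect. There a log2 change of 0.5 was recovered for 33% of changed genes in KO against WT and 61% for the vector. For a change of 1 the shares were 61.5% and 76%. These shares run over genes of all levels and are not the power for the members.

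The members and lists were chosen with earlier results of these data known. Detail was given to members called among lines or against WT and to NFE2L2, KEAP1, NQO1, GCLM, TXNRD1, SLC7A11 and HMOX1, and up to 3 called genes per further list were named. The chromosome neighbours, exon overlaps and counts of libraries beside WT were chosen after the values were seen.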

Additional observations from a re-analysis of the deposited data

Results flagged for a closer look

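None of the 37 sets of 5 vector changes, 1 change per line, held a value whose gap to the next exceeded 0.71 of the range, the limit that chance passes in about 1 of 20 sets, and no member's vector effect differed between WT and the other lines by the interaction test (smallest adjusted p in edgeR 0.977).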

How the results depend on the processing

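Of 288 refits of the 16 gene calls against WT, 219 kept direction and call, 69 kept direction and missed the threshold, and 0 changed sign. Members called numbered 7 in KO with no filter on low counts and 0 with the KO labels exchanged, where fitted changes stayed near their values. In L101P they were 7 with DESeq2 and 1 with exchanged labels. In E292V they were 2 with DESeq2, 3 with no filter and 0 with exchanged labels, and in E690K 4 with exchanged labels. For the vector they were 2 with DESeq2 (OSGIN1 and FTL) and 3 with no filter (FTH1 added), and 0 without the replicate block by line. The cause was not tested. These numbers, and those that follow with a library or pair left out, count members only. How many of all genes each refit called is not given here, so they show no change particular to the members. Leaving out 1 library or pair gave 7 to 25 members among lines, 0 to 10 in KO, 1 to 9 in L101P, 0 to 4 in E292V, 2 to 14 in E690K and 0 to 4 for the vector. The KO count fell to 0 without the untreated WT or the transduced KO library and rose to 10 without either L101P library. PIR in E292V lost its call without the KO or E690K pair, the untreated WT library or either E292V library, and the E690K count fell to 2 without the untreated WT or untreated E690K library. DESeq2 size factors moved the median of all genes by at most 0.01 on the log2 scale. The lowest count of a member was 407, for GSTM3, and each line and treatment had 1 library.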
